A study of Caenorhabditis elegans with 2 samples.

Results

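The ceh genes (for C. elegans homeobox) carry the generic homeobox name of the nematode Caenorhabditis elegans, and their proteins bind DNA through a homeodomain. They were taken as every protein-coding gene whose name begins with ceh- in the Ensembl annotation of the WBcel235 genome, except ceh-13, ceh-20, ceh-34, ceh-36, ceh-37, ceh-40 and ceh-60, which the selection rule left out. This gave 56 genes of 19973 protein-coding genes on the nuclear chromosomes. The question asked of them was how many had a chromatin immunoprecipitation (ChIP-seq) peak of MLS-2, itself a homeodomain protein of the HMX family, at their promoter, nearby or in their body.

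The worms were strain OP645, with an unc-119(tm4063) mutation on chromosome III and the integrated transgene wgIs645, from which MLS-2 is made with GFP and FLAG at its C terminus. Both samples were whole embryos of mixed stage and mixed sex, collected 2 h after bleaching had synchronized the eggs, and the fusion protein was pulled down with an antibody to GFP. The 2 biological replicates form 1 group, with no second condition and no untagged strain among the samples, and the labels do not say which promoter drives the transgene. Peaks come from all cells of the embryo together, so a site used in few cells and a weak site used in many cannot be told apart. The main list was the authors' optimal list of 1925 peaks that passed the irreproducible discovery rate (IDR). The signal of a peak is the authors' own score, in which the optimal list ran from 212 to 2651, and rank 1 is the strongest peak. Coordinates are in ce11 (WBcel235), 1-based, and a summit is the position of a peak's maximum as the authors gave it. The peak lists give no read totals, so the depth behind each peak is unknown.

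Homeodomain proteins are grouped by the sequence of their homeodomain and by further domains beside it. In C. elegans many of them act as terminal selectors, which set and hold the identity of a neuron class, and others pattern the epidermis, muscle or pharynx of the embryo. NK-like proteins, the class to which the HMX family belongs, often bind a core with the letters AATT, while CUT, POU, LIM and sine oculis proteins carry a further domain beside the homeodomain. A homeobox gene can be a target of another homeodomain protein, and several ceh genes are known to be regulated in this way. A class could be given with confidence to 28 of the 56 genes, among them 11 NK-like and related genes and 6 CUT genes, and the other 28 were left without a class.

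MLS-2 peaks were found near few ceh genes. The share with a summit was below that of all genes in the promoter window, similar to it within 5 kb and above it in the gene body, and each difference rests on few genes. Summits lay in the promoter window, from 1000 bp upstream to 100 bp downstream of a 5′ end, of ceh-38 and ceh-39, which is 2 of 56 genes (3.57%, 95% exact (Clopper-Pearson) interval 0.435 to 12.3), against 5.64% of all protein-coding genes. Within 5 kb of a 5′ end there was a summit at 10 of 56 genes (17.9%, interval 8.91 to 30.4), against 16.8% of all genes. In the gene body, from the first to the last annotated base, there was one at ceh-8, ceh-14 and ceh-38, or 3 of 56 genes (5.36%, interval 1.12 to 14.9), against 2.70% of all genes. Each of the 3 intervals for the ceh genes contains the share of all genes, and no test was made on a set of genes picked with earlier results known. The intervals cover counting error only and treat genes as independent, although neighbouring genes share peaks. The body window grows with the gene, and ceh genes had a median body of 2544 bp, against 2027 bp in all genes. The other windows have a fixed size around each 5′ end and were not ended at the next gene, which lay a median of 1628 bp upstream of ceh genes, against 937 bp in all genes.

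**Figure D1:**
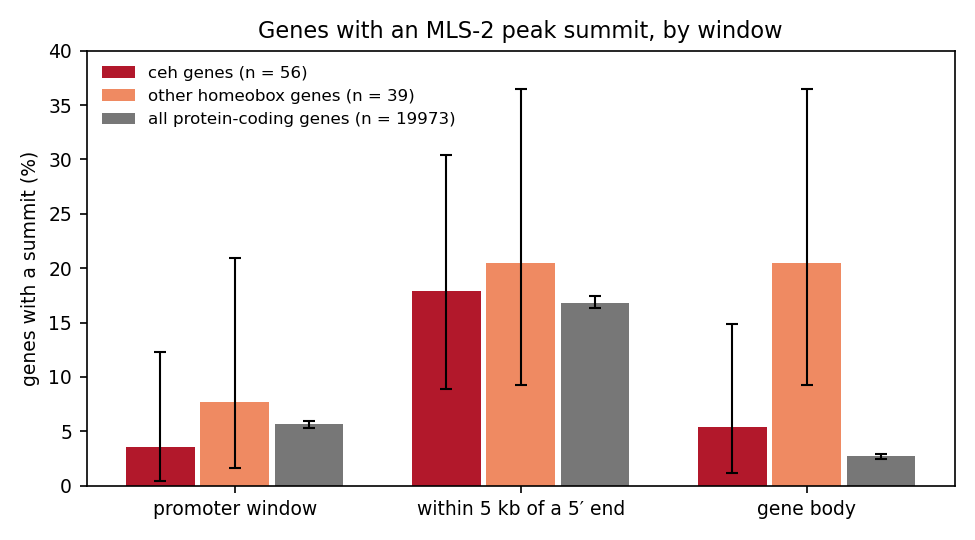
Share of genes (vertical axis, percent) with a summit of the optimal list in the promoter window, within 5 kb of a 5′ end or in the gene body, for 56 ceh genes, 39 other homeobox genes and 19973 protein-coding genes, with bars for the shares and lines for 95% exact binomial intervals. The ceh bars stand at 3.57%, 17.9% and 5.36%, and each interval includes the grey bar of all genes.

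The 10 genes were ceh-5, ceh-8, ceh-14, ceh-21, ceh-24, ceh-38, ceh-39, ceh-43, ceh-58 and ceh-63, and 15 peaks accounted for them. The peaks overlapped in places, so that they formed 13 separate stretches of DNA. Their signals ran from 227 to 508 with a median of 293, against a median of 290 over all 1925 peaks, and none was among the strongest of the list, the best rank being 273. For 7 of the 15 peaks the nearest protein-coding 5′ end belonged to a ceh gene, namely ceh-14, ceh-38, ceh-39, ceh-43 or ceh-58. The other 8 peaks lay nearer to a different gene. Of the 16 pairs of a gene and a summit, 13 had an upstream summit and 3 a downstream one. The same split was not counted over all genes, so whether it is usual is unknown. The pairs are not independent, since some share a gene or a peak. By place among protein-coding transcripts alone, 10 summits were intergenic (66.7%, against 65.8% of all optimal peaks) and 2 were in an intron (13.3%, against 28.7%). Of the rest, 1 was in a 5′ UTR (6.67%, against 2.75%) and 2 were in a 3′ UTR (13.3%, against 0.623%). None was in a coding exon, against 2.18% of all optimal peaks. Some of the intergenic summits, such as that of rank 941, lay inside genes annotated as noncoding RNA.

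**Figure D2:**
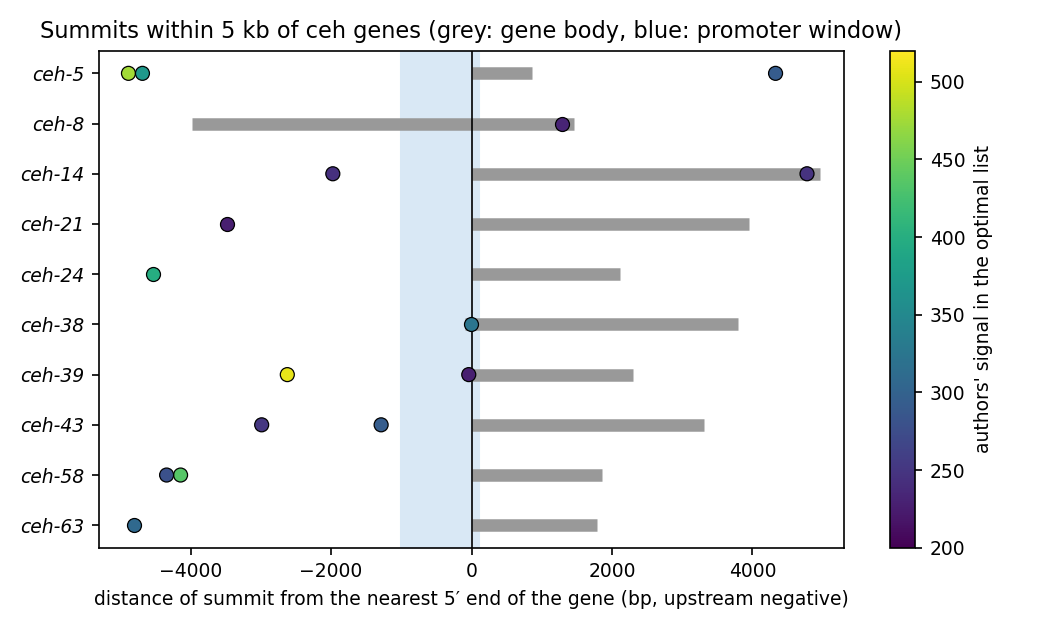
Position of each summit within 5 kb of the 10 ceh genes, as distance in bp from the nearest 5′ end of the gene (horizontal axis, upstream negative), with the gene body in grey, the promoter window in blue and the colour giving the authors' signal. Only ceh-38 and ceh-39 have a summit in the blue window, and the highest signal, 508, lies 2623 bp upstream of ceh-39.

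The DNA at 8 of the 15 summits is printed first, while the counts below were made on all 15. Each is the top strand of the RefSeq WBcel235 genome from 50 bp before to 50 bp after the summit. Capitals mark CAATTA or TAATTA, taken as homeodomain cores, GAGAGA, and GGGCGG, each sought on both strands, so that TAATTG and CCGCCC are matches on the bottom strand. CAATTA and TAATTA share their last letters but were counted as separate matches. The windows printed include those of ceh-58 and ceh-43, which hold cores, and leave out the promoter peak of ceh-38, which holds none. Cores are therefore more frequent among the windows printed than among all 15.
ceh-58, rank 389, chrII:10373690-10373790: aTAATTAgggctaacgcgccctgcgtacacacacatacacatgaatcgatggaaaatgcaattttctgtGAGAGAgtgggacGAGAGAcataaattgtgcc
ceh-58, rank 1048, chrII:10373889-10373989: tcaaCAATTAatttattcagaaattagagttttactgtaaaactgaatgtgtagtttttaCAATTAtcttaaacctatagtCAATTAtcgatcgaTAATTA
ceh-43, rank 941, chrIII:4451180-4451280: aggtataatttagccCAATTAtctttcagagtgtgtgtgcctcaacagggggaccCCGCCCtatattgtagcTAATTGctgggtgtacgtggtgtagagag
ceh-43, rank 1333, chrIII:4452881-4452981: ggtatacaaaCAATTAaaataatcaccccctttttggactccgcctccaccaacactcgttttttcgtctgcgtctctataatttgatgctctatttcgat
ceh-24, rank 469, chrV:13808642-13808742: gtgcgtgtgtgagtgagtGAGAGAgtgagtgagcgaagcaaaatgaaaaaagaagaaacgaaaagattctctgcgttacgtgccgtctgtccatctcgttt
ceh-14, rank 1430, chrX:7534657-7534757: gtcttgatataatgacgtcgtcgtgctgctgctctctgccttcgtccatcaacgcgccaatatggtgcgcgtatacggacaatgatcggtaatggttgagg
ceh-39, rank 273, chrX:1858745-1858845: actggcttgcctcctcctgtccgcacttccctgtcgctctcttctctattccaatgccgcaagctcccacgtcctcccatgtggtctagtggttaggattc
ceh-63, rank 842, chrX:3678817-3678917: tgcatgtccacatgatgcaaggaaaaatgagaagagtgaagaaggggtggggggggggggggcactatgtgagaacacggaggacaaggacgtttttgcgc

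Homeodomain cores were seen at the peaks of 3 ceh genes. CAATTA or TAATTA lay within 50 bp of the summit at 5 of the 15 peaks, against 8.78% of all optimal peaks. Within 100 bp the count stayed at 5 of the 15, while the share of all optimal peaks rose to 17.6%. The 5 peaks were both peaks of ceh-58, both of ceh-43 and 1 of ceh-5, so they are not independent sites. The peak of rank 1048 at ceh-58 held 3 copies of CAATTA and 1 of TAATTA, and its G and C content of 22.8% was below that of every other optimal peak. AT-rich letters are more frequent in AT-rich DNA, and the part that base composition plays in this count was not tested. GAGAGA lay at 5 of the 15 peaks, against 24.9% of all optimal peaks, and GGGCGG at 2, against 9.51%. The median G and C content of the 15 windows was 51.5%, against 49.5% over all peaks. A match is a description of these letters, and says nothing on whether MLS-2 touches them.

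Both promoter summits were at genes of the CUT class, and 2 genes are too few to read as a trait of the class. These genes encode proteins with a CUT domain beside the homeodomain, and some of them are known to act in neurons throughout the nervous system. Of the 6 CUT genes, ceh-38 and ceh-39 had a promoter summit, against 5.64% of all protein-coding genes. In the stricter list and in that of replicate 1, ceh-39 was not counted. A summit within 5 kb was found at ceh-38, ceh-39 and ceh-21, against 16.8% of all genes. The summit counted for ceh-21 was that of the ceh-39 promoter peak. ceh-41, ceh-48 and ceh-49 had none.

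ceh-38 encodes an ONECUT protein expressed widely in neurons and beyond. Its peak at chrII:6951377-6951846 had a signal of 324, rank 745, and its summit lay 7 bp upstream of one of 11 annotated 5′ ends of the gene and in the 5′ UTR of a longer transcript. The peak stood at rank 855 with a signal of 209 in replicate 1 and at rank 1121 with a signal of 98.6 in replicate 2, whose summits lay 0 and 4 bp from the pooled one. It was the ceh promoter peak that both replicates placed among their strongest regions. The same summit lay in the promoter window of malt-1, which encodes a paracaspase. No homeodomain core, GAGAGA or GGGCGG lay within 50 bp of it.

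ceh-39 is an X-signal element, one of the genes whose dose on the X chromosome tells the embryo its sex. It lies in a row with ceh-41 and ceh-21, other ONECUT genes, on chromosome X. The promoter peak at chrX:1855976-1856445 was weak, with a signal of 227 and rank 1686, and its summit lay 39 bp upstream of the 5′ end. In replicate 1 it stood at rank 2423, outside the 1925 strongest regions, with a signal of 132. In replicate 2 no region had its summit within 100 bp, but one of rank 1040, with a signal of 102, peaked 172 bp upstream of the gene, which is 133 bp from the pooled summit. The pooled region within 100 bp of that replicate 2 summit was another one, of rank 3652 (signal 162), below the optimal list. Thus ceh-39 counted as a promoter gene in the optimal list and in replicate 2, through different regions, and not in replicate 1.

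The bases directly upstream of ceh-39 are printed on the strand of the gene to show both summits, that of the optimal list at base 163 and that of replicate 2 at base 30. The final TTTCAG, in capitals, touches the annotated 5′ end and matches the letters of worm splice acceptors. Many worm mRNAs receive their first exon by trans-splicing, so an annotated 5′ end can be a splice site and not a start of transcription. TTTCAG stood directly before the most upstream 5′ end of 11 of the 56 ceh genes (19.6%), against 12.3% of all protein-coding genes. The stretch had a G and C content of 46.8% and held 0 copies of each motif sought above.
ceh-39 upstream, chrX:1856173-1856373, minus strand: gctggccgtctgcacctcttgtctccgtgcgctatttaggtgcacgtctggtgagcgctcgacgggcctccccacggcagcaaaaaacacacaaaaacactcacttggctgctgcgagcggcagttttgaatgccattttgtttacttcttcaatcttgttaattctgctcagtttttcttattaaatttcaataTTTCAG

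The stronger peak at ceh-39 lay farther away and next to a tRNA gene. This was the peak of highest signal at any ceh gene, at chrX:1858671-1858962 with a signal of 508 and rank 273, and its summit lay 2623 bp upstream of the 5′ end. It ranked 278 in replicate 1, with a signal of 331, and 288 in replicate 2, with a signal of 178. The tRNA gene WBGene00023152 begins 24 bp from the summit, and 27 of its bases are at the end of the window printed above. It was the only one of the 15 peaks with its summit within 200 bp of a tRNA, snoRNA, snRNA or miRNA gene, against 289 of all 1925 optimal peaks. The nearest protein-coding 5′ end was that of T26C11.8, at 1927 bp. For ceh-21 the only summit within 5 kb was the weak promoter peak of ceh-39, 3475 bp upstream of ceh-21.

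Of the 11 NK-like and related genes, ceh-5, ceh-24 and ceh-43 had a summit within 5 kb, against 16.8% of all protein-coding genes. All summits at ceh-5 and ceh-24 lay nearer to the 5′ end of another gene. None of the 11 had a summit in the promoter window or body, against 5.64% and 2.70% of all protein-coding genes. ceh-1, ceh-2, ceh-22, ceh-27, ceh-28, ceh-30, ceh-31 and ceh-51 had none in any window. ceh-43 is the Distal-less (DLX) gene of the worm, which acts in anterior epidermis and in dopaminergic neurons. Both its peaks lay in a gap of 12889 bp upstream of the gene, and no other protein-coding gene had a 5′ end within 5 kb of either. The nearer one, at chrIII:4450995-4451464, had a signal of 293 and rank 941, with the summit 1287 bp upstream. It ranked 1318 in replicate 1, with a signal of 171, and 602 in replicate 2, with a signal of 127. The farther one, at chrIII:4452696-4453165, had a signal of 251 and rank 1333, with the summit 2988 bp upstream. It ranked 1366 in replicate 1, with a signal of 169, and 1566 in replicate 2, with a signal of 85.8. Both ceh-43 peaks were among the strongest regions of each replicate, and both lay outside the promoter window. The nearer one fell inside it when the window was drawn from 2000 bp upstream, and the farther one did not.

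ceh-24 encodes an NK2-family protein that acts in neurons of the head and in some muscles. Its peak at chrV:13808457-13808926 had a signal of 398 and rank 469, and ranked 445 in replicate 1, with a signal of 274, and 606 in replicate 2, with a signal of 127. The summit lay 4539 bp upstream of ceh-24 and 1455 bp from the 5′ end of swan-1, the nearest gene. In both replicates it was among the strongest regions, but 3 genes had a 5′ end within 5 kb of it.

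ceh-58, to which no class was given, had a pair of overlapping peaks in a gap of 15735 bp upstream of the gene, the longest such gap among the 56 ceh genes. The stronger, at chrII:10373672-10373792, had a signal of 435 and rank 389, and its summit lay 4143 bp upstream of ceh-58, which was the only gene within 5 kb. It ranked 450 in replicate 1, with a signal of 272, and 353 in replicate 2, with a signal of 161. The weaker, at chrII:10373704-10374173, had a signal of 279 and rank 1048, with its summit 199 bp farther on. It ranked 1369 in replicate 1, with a signal of 169, but 2178 in replicate 2, with a signal of 75.5 and the summit 61 bp away. The ceh-58 peak with 4 homeodomain cores was therefore the weaker of the pair and was outside the strongest regions of replicate 2.

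ceh-14 is the LHX3/LHX4 gene, a LIM homeobox gene needed in several neurons, among them the thermosensory AFD. Its upstream peak at chrX:7534472-7534941 had a signal of 244 and rank 1430, with the summit 1975 bp upstream of the 5′ end. This peak ranked 1472 in replicate 1, with a signal of 164, and 2121 in replicate 2, with a signal of 76.4. The other, at chrX:7527719-7528188, had a signal of 247 and rank 1384, with the summit in the 3′ UTR, 4778 bp downstream of the 5′ end. It ranked 1910 in replicate 1, with a signal of 146, and 1176 in replicate 2, with a signal of 96.7. Both were in the weaker part of the list, with 28.2% and 25.8% of optimal peaks at or below the signals of the peaks of rank 1384 and 1430, and the peak of rank 1384 alone reached the strongest regions of both replicates.

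At ceh-63 the only peak, at chrX:3678632-3679101 with a signal of 308 and rank 842, lay 4809 bp upstream of the gene and 310 bp from the 5′ end of tag-52, in whose promoter window it fell. It ranked 713 in replicate 1, with a signal of 223, and 1487 in replicate 2, with a signal of 87.5. The window of ceh-63 itself held no region of any rank in the pooled list.

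The peaks counted for ceh-5 and ceh-8 lay nearer to other genes. ceh-5, a VAX-family gene, sits on chromosome I at 9727169 to 9728034 and overlaps ocrl-1, which encodes an inositol phosphatase. A pair of overlapping peaks, of rank 313 (signal 476) and rank 547 (signal 371), had their summits 4885 and 4686 bp upstream of ceh-5, in introns of ocrl-1, and 432 and 233 bp from the 5′ end of eat-16, which encodes a regulator of G protein signalling. They ranked 334 and 666 in replicate 1 and 311 and 1209 in replicate 2. Another peak, of rank 951 (signal 292), lay 4330 bp downstream of the 5′ end of ceh-5 and stood at rank 752 in replicate 1 and 2402 in replicate 2. ceh-8, a RAX-family gene, had its peak, of rank 1594 (signal 232), in its 3′ UTR, and the 5′ end of the collagen gene col-63 lay 709 bp away. That peak ranked 1405 in replicate 1 and 3638 in replicate 2, the lowest rank of any ceh peak that had a partner there. None of the 3 other paired-like genes with a class, ceh-10, ceh-17 and ceh-45, had a peak within 5 kb. Nor did the POU genes ceh-6 and ceh-18, the sine oculis-type genes ceh-32 and ceh-33, the engrailed gene ceh-16 or the MNX gene ceh-12. The share within 5 kb over all protein-coding genes was 16.8%.

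Both replicates placed 10 of the 15 peaks (66.7%) in their top 1925 regions, with summits at most 100 bp apart, against 63.4% of all optimal peaks. Replicate 1 held 14 of the 15 and replicate 2 held 10, against 86.6% and 73.4% of all peaks. With all regions of each replicate's list, 14 of the 15 were found in both (93.3%), against 94.0% of all optimal peaks, the exception being the promoter peak of ceh-39. The 5 peaks not found in both were of ceh-5 (rank 951), ceh-58 (rank 1048), ceh-14 (rank 1430), ceh-8 and ceh-39 (rank 1686). These were among the weaker peaks, since the 8 strongest of the 15 were all found in both. The optimal list was made from these same replicates, so their agreement on it was in part built in.

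**Figure D3:**
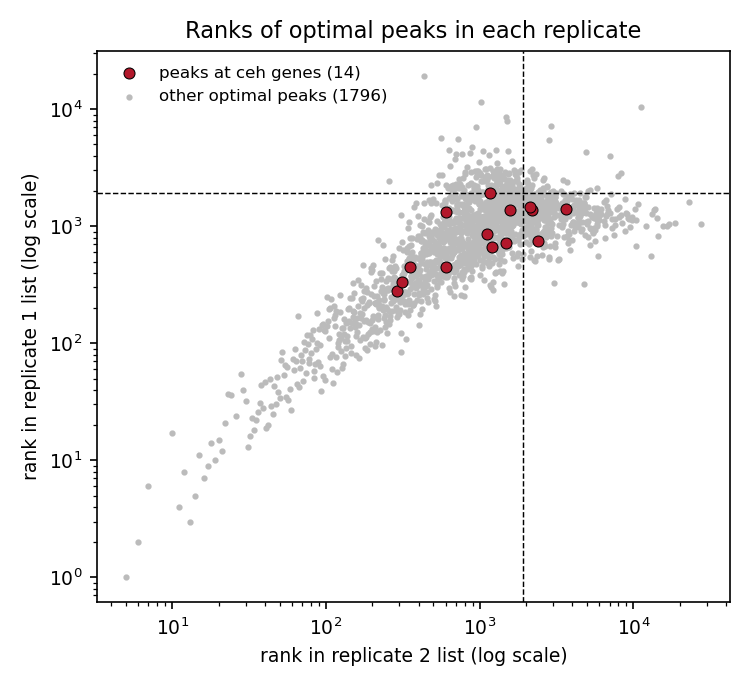
Rank of each optimal peak in the list of replicate 1 (vertical axis, log scale) and of replicate 2 (horizontal axis, log scale), with red points for the 14 peaks at ceh genes found in both lists, grey points for the other optimal peaks and dashed lines at rank 1925. The red points lie between 278 and 1910 in replicate 1, and 4 of them lie to the right of the dashed line in replicate 2.

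The 46 other ceh genes had no summit in any of the 3 windows. Their nearest summit lay between 6426 bp away, at ceh-76, and 450327 bp away, at ceh-84. Over all 56 genes the median distance from a 5′ end to the nearest summit was 26840 bp, against 24193 bp over all protein-coding genes. Within 20000 bp there was a summit for 22 of 56 ceh genes (39.3%), against 44.6% of all genes, and within 50000 bp for 43 (76.8%), against 72.4%. The farthest were a group on chromosome II, where ceh-81, ceh-82, ceh-83 and ceh-84 had no summit within 200 kb and ceh-87 had its nearest at 146076 bp. Over all protein-coding genes, 97% had a summit within 191013 bp. ceh-81, ceh-82 and ceh-83 lie close together, at chrII:1730403-1736533, and are not independent. By chromosome, the ceh genes with a summit within 5 kb were 4 of 14 on X (28.6%, against 22.9% of all genes there), 2 of 8 on I (against 23.2%), 2 of 13 on II (15.4% against 15.9%), 1 of 6 on III (16.7% against 22.2%), 1 of 11 on V (9.09% against 9.37%) and none of 4 on IV (against 14.2%).

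**Figure D4:**
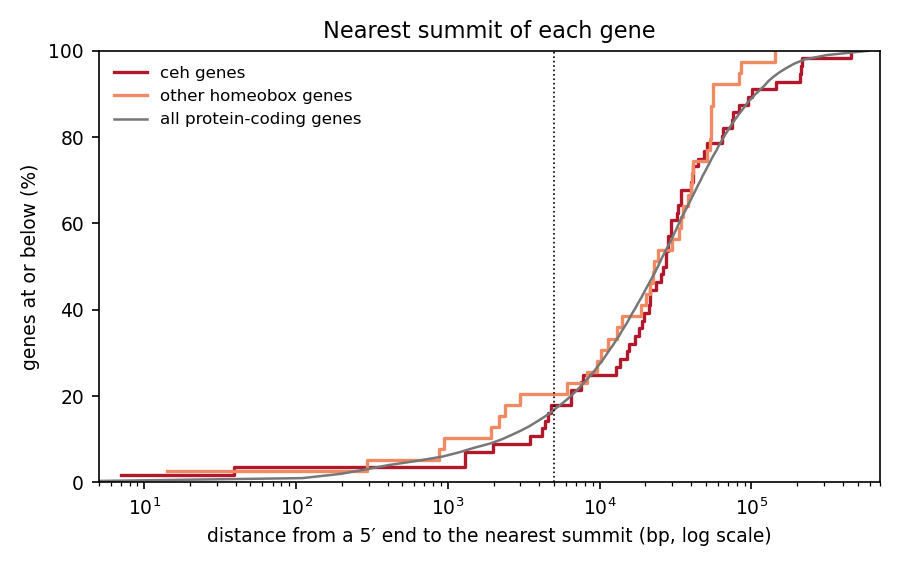
Cumulative share of genes (vertical axis, percent) whose nearest summit lies within a given distance of a 5′ end (horizontal axis, bp, log scale), for ceh genes, other homeobox genes and all protein-coding genes, with a dotted line at 5 kb. The 3 curves lie close together, with medians of 26840 bp for ceh genes, 22960 bp for other homeobox genes and 24193 bp for all genes.

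Below the threshold, the pooled list of 30000 regions, which holds peaks and background, placed a summit in the promoter window of 26 of the 56 ceh genes (46.4%), against 33.3% of all protein-coding genes. Apart from ceh-38 and ceh-39, these 24 genes had regions below the optimal list. The median of the best rank was 9406 in the 26 ceh genes, against 9300 in all genes with a region. The 5 genes without an optimal peak that had the strongest regions were ceh-2, ceh-27, ceh-74, ceh-100 and ceh-51. ceh-2, an EMX-family gene of pharyngeal neurons, had a region of rank 2694 (signal 183), which ranked 2101 in replicate 1 but 9872 in replicate 2. ceh-27, an NK2-family gene, had one of rank 3144 (signal 172), with 2693 in replicate 1 and 15213 in replicate 2. The region of ceh-74, of rank 3731 (signal 161), ranked 3711 in replicate 1, and that of ceh-100, of rank 5201 (signal 141), ranked 3230 there, and neither had a partner within 100 bp in replicate 2. ceh-51, which acts in the mesoderm of the early embryo, had one of rank 5987 (signal 133), with 7764 in replicate 1 and 6873 in replicate 2. Of the 26 regions, 13 had a partner in both replicates, 22 in replicate 1, 15 in replicate 2 and 2 in neither. The same shares were not counted over all genes with a region, so whether these are usual is unknown.

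**Figure D5:**
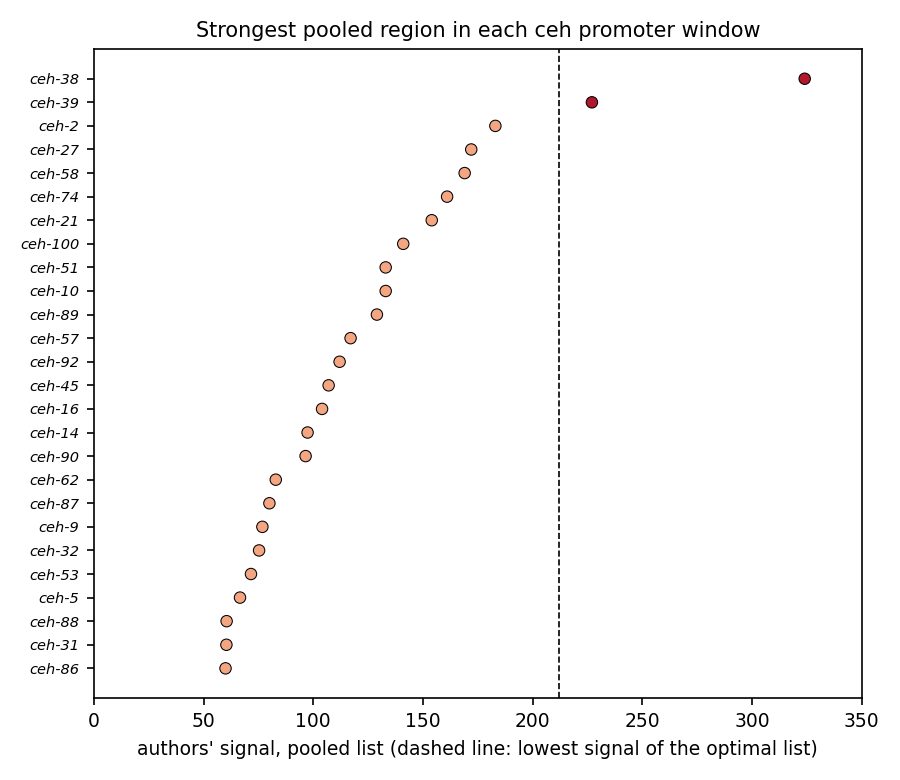
Authors' signal (horizontal axis) of the strongest region of the pooled list in the promoter window of the 26 ceh genes that had one, with a dashed line at 212, the lowest signal of the optimal list. Only ceh-38 (324) and ceh-39 (227) lie to the right of the line, and ceh-2 (183) comes next.

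A set of 39 homeobox genes with other names, such as unc-86, lim-4 and mls-2, was read in the same way. A promoter summit was found at 2 of 56 ceh genes and at 3 of these 39 genes (7.69%, interval 1.62 to 20.9), a summit within 5 kb at 10 of 56 and at 8 of 39 (20.5%), and a summit in the body at 3 of 56 and at 8 of 39 (20.5%, interval 9.30 to 36.5). The difference was not tested. The ceh genes were shorter, with a median body of 2544 bp against 4858 bp, and had a shorter upstream gap, 1628 bp against 9235 bp. The 3 genes with a promoter summit were zag-1 (chrIV:3854666-3855135, signal 294), ttx-1 (chrV:20061476-20061945, signal 394) and mls-2 (chrX:4761419-4761888, signal 343), the gene from which the transgene was made. mls-2 had 5 summits within 5 kb. Reads from the transgene and from the gene itself were not separated, and no count was made without mls-2. A count made after the values were seen showed that 4 of 56 ceh genes (7.14%) had 2 or more separate stretches within 5 kb, namely ceh-5, ceh-14, ceh-39 and ceh-43, against 2.63% of all protein-coding genes.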

How the data were processed

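The authors' deposited files were narrowPeak lists of chromatin immunoprecipitation peaks. Per the deposited file descriptions, replicate and pooled lists of 30000 regions (peaks and background given to IDR) were made from the replicate alignments and a control alignment, and the optimal list of 1925 peaks passed the IDR threshold. A check showed that the optimal list equals the 1925 strongest pooled regions. The sources used here do not give the peak caller, the aligner or the IDR cut-off. The deposited signal value is the authors' score per peak, of unstated scaling, and was used only to rank and describe peaks within a list. The other deposited column used was the summit offset in bp. Depth is unknown, so no precision could be derived from it.

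The ce11 lists were set against Ensembl release 115 and the RefSeq genome, both WBcel235, with Python 3.11.15, pandas 2.3.3, numpy 2.4.6 and scipy 1.17.1. All 56 genes had a RefSeq gene of the same symbol with a start within 5 kb. The ce10 lists were not used here. Replicate 2's list holds 10 mitochondrial regions, which count in its ranks and were left out elsewhere. 5′ ends are those of protein-coding transcripts. Replicate peaks match with summits within 100 bp, and motif windows reach 50 bp from the summit. The counting was tested on simulated data. The genes and lists were chosen with earlier results of these data known, so no test was made. Named genes are those with a peak in a window, the 5 next strongest promoter regions, and other homeobox genes with a promoter summit. Alternatives were a stricter list of 962 peaks, each replicate's list, all pooled regions, interval overlap, other windows, nearest genes only, and leaving out summits near small RNA genes.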

Additional observations from a re-analysis of the deposited data

How the results depend on the processing

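Counts of ceh genes moved with the list and the window. With a promoter summit there were 1 (ceh-38) of 56 in the stricter list (1.79%, against 3.09% of all genes), 26 in all pooled regions (46.4%, against 33.3%), and 4 with 2000 bp upstream (7.14%, against 7.88%), where ceh-14 and ceh-43 joined ceh-38 and ceh-39. With the list of a single replicate the count ran from 1 to 2, against 2 in the optimal list, being 1 (ceh-38) without replicate 2. Within 5 kb the count was 41 in all pooled regions (73.2%, against 67.1% of all genes), 5 at 2 kb (8.93%, against 9.26%) and 5 when the nearest 5′ end had to be the gene's own (8.93%, against 7.63%), and 9 to 11 with 1 replicate's list. In the gene body it was 1 in the stricter list (1.79%, against 1.32%), 25 in all pooled regions (44.6%, against 35.0%), 1 by nearest 5′ end (1.79%, against 2.21%), and 2 to 3 with 1 replicate's list. Homeodomain cores within 25 bp lay at 2 of 15 peaks (4.78% of all peaks), against 5 within 50 bp (8.78% of all peaks). Within 100 bp they lay at 5 of 15 peaks (17.6% of all peaks). The other alternatives left these counts within 1.5 times. Under 500 bp upstream, interval overlap and leaving out small RNA neighbours, the promoter genes were ceh-38 and ceh-39. No paired analysis was possible because the samples form 1 group.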

Other observations

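A pair of ceh genes had a region near them in replicate 2 alone among its 1925 strongest. At ceh-45, a goosecoid-family gene, a region of rank 1893 (signal 79.8) had its summit 2349 bp downstream of a 5′ end, and the pooled region there ranked 4334 (signal 151). At ceh-62 a region of rank 1914 (signal 79.4) had its summit 1248 bp upstream, and the pooled region ranked 2093 (signal 204), just below the lowest optimal signal of 212. Both ranks were just inside the 1925 regions taken from the list of replicate 2.

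Summits in a 3′ UTR were few in the optimal list, 12 of 1925 (0.623%), and 2 of the 15 peaks at ceh genes were among them, at ceh-8 and ceh-14. Summits inside genes annotated as noncoding RNA of other kinds numbered 4 of the 15, against 308 of all 1925 optimal peaks, among them C28A5.8 at the nearer peak of ceh-43 and F46C8.15 at the upstream peak of ceh-14. These counts were looked at after the peaks were seen.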
